A study of Homo sapiens with 12 samples.

Results

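The genes KLF1, NFE2, ZFPM1 and GFI1B encode nuclear proteins that work beside GATA1 in erythroid and megakaryocytic cells, and GATA1 and TAL1 binding around them was read from 2 lists of ChIP-seq intervals in K562, a human erythroleukemia cell line. Members were all listed intervals that overlapped 1 of 4 windows of hg19 by at least 1 bp. The windows were chromosome 19 from 12985 to 13008 kb for KLF1, chromosome 12 from 54675 to 54705 kb for NFE2, chromosome 16 from 88509 to 88612 kb for ZFPM1, and chromosome 9 from 135810 to 135890 kb for GFI1B. Together they held 38 of the 24654 distinct intervals that the lists place on chromosomes 1 to 22 and X. Each interval was labelled shared where both lists gave the same start and end, and otherwise GATA1-only or TAL1-only.

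Both libraries came from cells whose genotype is labelled control, with 1 library per factor. The title of the TAL1 library carries the tag Sp and that of the GATA1 library does not, and the titles do not explain it. The series also has cells with lentiviral short hairpin RNAs against GATA1 or TAL1 and libraries for LDB1, H3K27ac and an input, 12 libraries in all, of which the other 10 were not analysed here. The labels do not say whether the control cells carried a vector. Chromatin was cut with micrococcal nuclease, and fragments of about the size of 1 or 2 nucleosomes were precipitated, per the labels' protocols. The GATA1 list held 22769 intervals and the TAL1 list 8914 on these chromosomes, with positions alone and no height, so the depth and the strength of binding at any interval are unknown.

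GATA1 is a zinc finger factor that binds the bases GATA, and TAL1, of the basic helix-loop-helix family, meets it on DNA in a complex with LMO2 and LDB1. KLF1 is a zinc finger activator of red cell genes, among them the adult beta-globin gene, which it binds at CACCC motifs. NFE2 is the blood-restricted subunit of the NF-E2 heterodimer, which pairs with small MAF proteins and acts on globin regulatory regions and in platelet formation. ZFPM1, also called FOG1, is a cofactor that binds a zinc finger of GATA1. GFI1B is a zinc finger repressor that recruits the histone demethylase complex of KDM1A and RCOR1 and is needed in the erythroid and megakaryocytic lineages. Genes that make such partners are themselves known targets of GATA1.

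The bases that GATA1 reads are shown first, in the 250 bases before a gene start of KLF1 and GFI1B, and of ZFPM1 as a contrast. The sequences are those of RefSeq on build GRCh38.p14, 5′ to 3′ on the strand of the gene, and capitals mark GATA motifs. These were the letters AGATAA or AGATAG or TGATAA or TGATAG on either strand. The KLF1 stretch is chr19:12887202-12887451 on the minus strand, the GFI1B stretch chr9:132978444-132978693 on the plus strand, and the ZFPM1 stretch chr16:88453030-88453279 on the plus strand.
KLF1: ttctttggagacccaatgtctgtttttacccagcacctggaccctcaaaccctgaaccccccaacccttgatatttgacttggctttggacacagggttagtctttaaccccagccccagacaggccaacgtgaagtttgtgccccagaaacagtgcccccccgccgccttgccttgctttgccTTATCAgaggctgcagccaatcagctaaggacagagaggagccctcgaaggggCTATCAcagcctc
GFI1B: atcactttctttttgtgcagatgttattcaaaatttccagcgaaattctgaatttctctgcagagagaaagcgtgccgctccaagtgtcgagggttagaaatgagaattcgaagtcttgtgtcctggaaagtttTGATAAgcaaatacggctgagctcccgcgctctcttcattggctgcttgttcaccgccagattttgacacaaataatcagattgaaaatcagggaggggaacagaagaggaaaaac
ZFPM1: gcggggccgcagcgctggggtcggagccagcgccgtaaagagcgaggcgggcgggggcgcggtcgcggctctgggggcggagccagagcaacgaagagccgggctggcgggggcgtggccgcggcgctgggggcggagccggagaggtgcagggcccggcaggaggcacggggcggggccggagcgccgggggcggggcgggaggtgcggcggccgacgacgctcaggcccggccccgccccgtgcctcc

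The KLF1 stretch held 2 GATA motifs, both on the opposite strand, which end 60 and 7 bases before the start. At the GFI1B start shown there was 1, ending 110 bases before the start. The other GFI1B start in the table, and the ZFPM1 start, had 0. ZFPM1's stretch was 83.2% G and C, against 55.2% at KLF1 and 42.8% at the GFI1B start shown. Among 35114 RefSeq promoter stretches of the same length, 22.3% held at least 1 GATA motif and 4.96% at least 2.

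KLF1 and this GFI1B start also shared a longer pattern. In each, the bases CTG stood 7 or 8 bases before a GATA motif on the same strand, the layout in which the complex of TAL1 and GATA1 is known to bind. At KLF1 the run was CTGCAGCCTCTGATAA on the opposite strand, and at GFI1B it was CTGGAAAGTTTTGATAA on the strand of the gene. Neither the other GFI1B start nor the ZFPM1 start held it, and the GFI1B start shown is the one with a GATA motif. Of all promoter stretches, 1.16% held this pattern. It contains a GATA motif, so it cannot be more common than one. Among the 7840 stretches with a GATA motif, 406 held the pattern. An E-box, CANNTG, stood once at KLF1, in 2 places at the GFI1B start shown and nowhere in the ZFPM1 stretch. The other GFI1B start also held 1. Of all stretches, 61.8% held at least 1. CACCC (either strand), the motif of KLF1, was in 0 of the 4 stretches, the other GFI1B start included, and in 54.7% of all. TGANTCA, the core of the NF-E2 site, was in 0 of the 4 and in 6.57% of all. A match is a description of letters. The intervals below are on hg19 and were not placed on these sequences, so which intervals cover a gene start was not determined. NFE2 had no entry in the table of gene starts.

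Over the 4 genes, GATA1 intervals were more often TAL1 intervals than elsewhere in the lists. Of the 38 intervals, 21 were shared, 16 were GATA1-only and 1 was TAL1-only. The 21 shared intervals made up 56.8% of the 37 GATA1 intervals there (exact 95% interval 39.5 to 72.9%), while the share outside the windows was 30.8%. Of the 22 TAL1 intervals at these genes, 95.5% were shared (77.2 to 99.9%), against 78.8% outside. Neighbouring intervals are not independent and the genes were chosen with earlier results of these lists known, so these limits cover counting error only and no test was made.

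**Figure D1:**
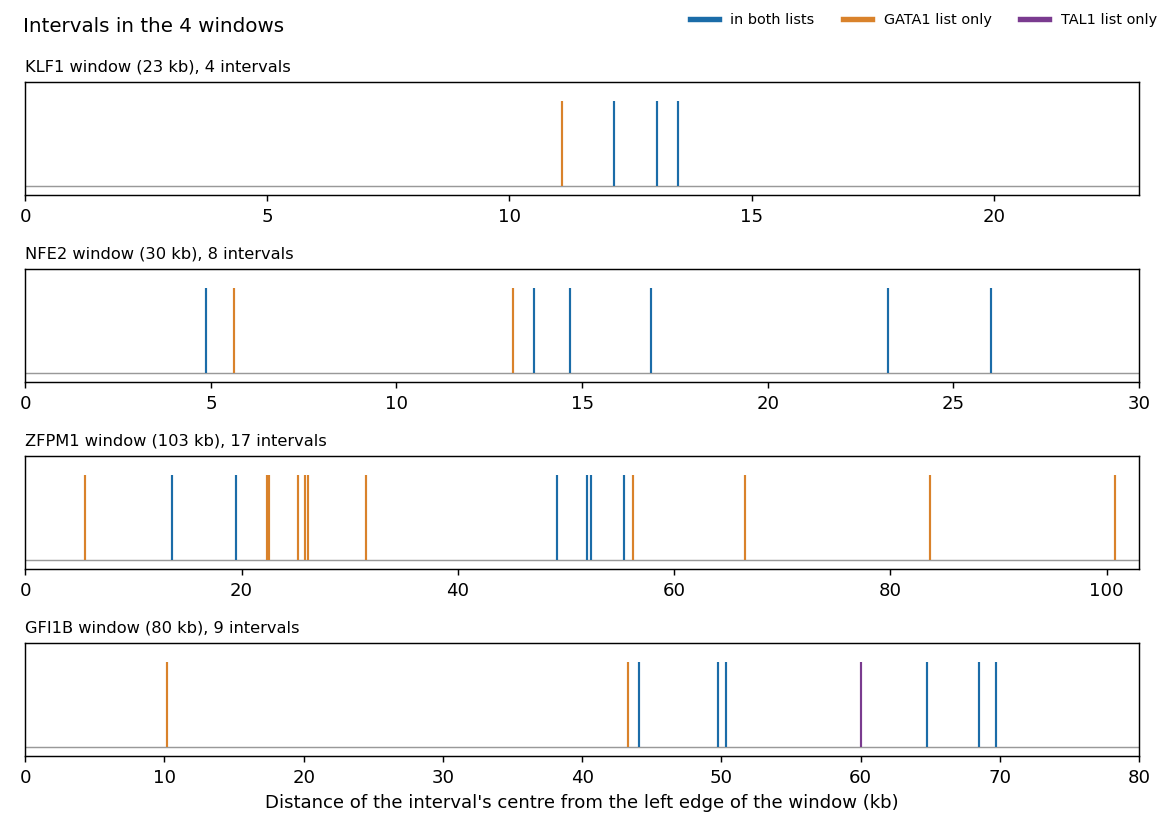
Each panel is 1 window, with the distance of each interval's centre from the left edge of the window in kb on the horizontal axis; bars are coloured by label, their height carries no value, and the scale differs between panels. The 4 KLF1 intervals sit within 2.65 kb, the ZFPM1 intervals form blocks of 1 label, and the left part of the GFI1B window holds 1 interval.

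KLF1 had the fewest intervals of the 4 genes, in the shortest window, and all of its 4 intervals lay together. Its window is 23 kb long and the RefSeq gene 2.78 kb (GRCh38.p14). A GATA1-only interval of 419 bp lay at 12995869 to 12996287 of chromosome 19. The shared intervals followed at 12997091 to 12997245 (155 bp), 12998001 to 12998096 (96 bp) and 12998421 to 12998521 (101 bp). TAL1 was listed at 3 of the 4 GATA1 intervals (75%, exact 95% interval 19.4 to 99.4%), all on the same side of the GATA1-only one.

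The whole KLF1 group spanned 2.65 kb and its shared intervals 1.43 kb. No listed interval lay in the 10.9 kb of the window to the left or in the 9.48 kb to the right. The nearest intervals outside the window were both GATA1-only, at 26.3 kb beyond the left edge and 21.9 kb beyond the right edge. The KLF1 group was therefore the only one in its window in either list. Other 23 kb stretches of chromosome 19 held 0.413 intervals on average, and 1898 of 2569 held none, so empty stretches were common there. Whether the distances around the KLF1 group are unusual was not tested. In the order of protein-coding genes in RefSeq, KLF1 lies between DNASE2 and GCDH.

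Of the other 2569 stretches of 23 kb on chromosome 19, 28 held at least 4 intervals, or 1.09%. At least 3 shared intervals were found in 11 of them, or 0.428%. The median stretch held 0 intervals and the richest 7. Chromosome 19 thus had richer stretches than KLF1. Over chromosomes 1 to 22 and X, 0.614% of tiled stretches held at least 4. Among the 671 stretches with any interval, 4.17% held 4 or more. With intervals under the overall median width of 297 bp left out, KLF1 kept 1 interval and 18.3% of the 2569 stretches held as many. The interval kept was the GATA1-only one of 419 bp, so no shared interval of KLF1 remained.

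NFE2 had the highest number of intervals of any 30 kb stretch of chromosome 12 in this tiling, and most were shared. From left to right, a shared interval lay at 54679777 to 54679986 (210 bp), and a GATA1-only one at 54680499 to 54680761 (263 bp). After a gap of 7.22 kb came a GATA1-only interval at 54687986 to 54688277 (292 bp). To the right of these every interval was shared.

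The 5 shared intervals in that right part of the NFE2 window spanned 12.6 kb. The first 3 were at 54688599 to 54688801 (203 bp), 54689497 to 54689866 (370 bp) and 54691745 to 54691971 (227 bp). The next, at 54697927 to 54698563, measured 637 bp and was the widest of all 38 members. The last was at 54700811 to 54701206 (396 bp). TAL1 was listed at 6 of the 8 GATA1 intervals of NFE2 (75%, exact 95% interval 34.9 to 96.8%), and no TAL1 interval stood without GATA1.

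NFE2 intervals covered 8.66% of the window, the highest of the 4 windows, against 3.35% at KLF1, 3.72% at GFI1B and 3.80% at ZFPM1. None of the other 4460 stretches of 30 kb on chromosome 12 (0%) held 8 intervals, and none (0%) held 6 shared ones. The richest had 7 intervals, and the highest number of shared intervals in 1 stretch was 5. With a stretch started at every kb, 6 of 133763 stretches away from the window held 8. Such stretches overlap each other, so the 6 need not be separate regions. Over chromosomes 1 to 22 and X, 27 of 101189 tiled stretches held at least 8, or 0.0267%. With intervals under the median width left out, NFE2 kept 3 intervals, and 0.426% of the stretches held as many.

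The RefSeq NFE2 gene is 8905 bp long, so at least 21.1 kb of its window lies outside it. The neighbouring protein-coding genes in RefSeq are HNRNPA1 on 1 side and COPZ1 on the other. The lists assign no interval to a gene. A GATA1-only interval lay 1.31 kb beyond the left edge of the window, and the nearest on the right was 13.4 kb beyond it.

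ZFPM1 had the most intervals of the 4 genes. With all widths counted, it also had the largest share of GATA1 intervals without TAL1 among these genes. Its window of 103 kb held 17 intervals, all of them GATA1 intervals, and 6 of these were shared (35.3%, exact 95% interval 14.2 to 61.7%). Outside the windows 30.8% of GATA1 intervals were shared, so ZFPM1 stood near the share elsewhere. The RefSeq gene is 85.3 kb long, with ZC3H18 as the next protein-coding gene on its right. Along the window the labels changed in blocks.

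From the left, a GATA1-only interval was followed by 2 shared ones, at 88522356 to 88522702 (347 bp) and 88528437 to 88528600 (164 bp). Then came 6 GATA1-only intervals within 9.38 kb, of 90 to 302 bp. The widest of the 11 GATA1-only intervals was in that block, at 88540323 to 88540624. After 17.3 kb with no interval, 4 shared intervals followed.

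This second shared block of ZFPM1 spanned 6.61 kb. Its widest interval was the first, and the 4 were at 88557941 to 88558502, 88560839 to 88561098 (260 bp), 88561241 to 88561385 (145 bp) and 88564126 to 88564549 (424 bp). A GATA1-only interval of 97 bp began 616 bp beyond the block. The last 3 intervals of the window were also GATA1-only, and gaps of 10.1 to 16.9 kb preceded each of them. TAL1 was listed in the left and middle parts of the window and not in its last 47.5 kb.

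None of the other 875 stretches of 103 kb on chromosome 16 (0%) held 17 intervals, and the richest held 15. For shared intervals ZFPM1 had more company, with 2 stretches (0.229%) that also held 6. Of GATA1-only intervals, 1 other stretch held 11. With a stretch started at every kb, 45 of 90047 stretches held at least 17 and the richest 20. ZFPM1 was therefore not the richest region of chromosome 16 in every placement. Stretches started at every kb overlap each other, so the 45 need not be separate regions. Over chromosomes 1 to 22 and X, 8 of 29457 tiled stretches held at least 17, or 0.0272%. With intervals under the median width left out it kept 4, and 1.94% of stretches held as many. The nearest interval beyond the left edge was 326 kb away and shared, and beyond the right edge 71.6 kb away and GATA1-only.

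GFI1B had 9 intervals in 80 kb, and it was the only one of the 4 windows with a TAL1-only interval. TAL1 was listed at 6 of its 8 GATA1 intervals (75%, exact 95% interval 34.9 to 96.8%). The left part of the window was almost empty. A GATA1-only interval of 545 bp, the widest GATA1-only member of all 4 windows, lay at 135819941 to 135820485, and 32.7 kb without an interval followed.

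Beyond that gap of GFI1B a GATA1-only interval of 224 bp lay 544 bp before the first shared one. The shared intervals stood in 2 groups of 3. The first group spanned 6.54 kb, at 135853927 to 135854243 (317 bp), 135859647 to 135859875 (229 bp) and 135860229 to 135860464 (236 bp). The second group spanned 5.24 kb, at 135874694 to 135874926 (233 bp), 135878312 to 135878659 (348 bp) and 135879479 to 135879932 (454 bp). Between them, at 135869874 to 135870260, was the TAL1-only interval of 387 bp, 9409 bp after the first group and 4433 bp before the second.

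Of the other 1763 stretches of 80 kb on chromosome 9, 4 held at least 9 intervals (0.227%) and 1 held 6 shared ones (0.0567%). No other stretch held 7 TAL1 intervals, while 5 held at least 8 GATA1 intervals and the richest had 11. Over chromosomes 1 to 22 and X, 157 of 37926 tiled stretches held at least 9 intervals, or 0.414%, and the richest held 20. On its own chromosome the TAL1 count of GFI1B stood higher among the stretches than its GATA1 count. Among the 373 stretches with any interval, 1.07% held 9 or more. With intervals under the median width left out GFI1B kept 5. The RefSeq gene is 47.9 kb long, and TSC1 and GTF3C5 are its protein-coding neighbours. The interval nearest to the right edge, 12.6 kb beyond it, was also TAL1-only.

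**Figure D2:**
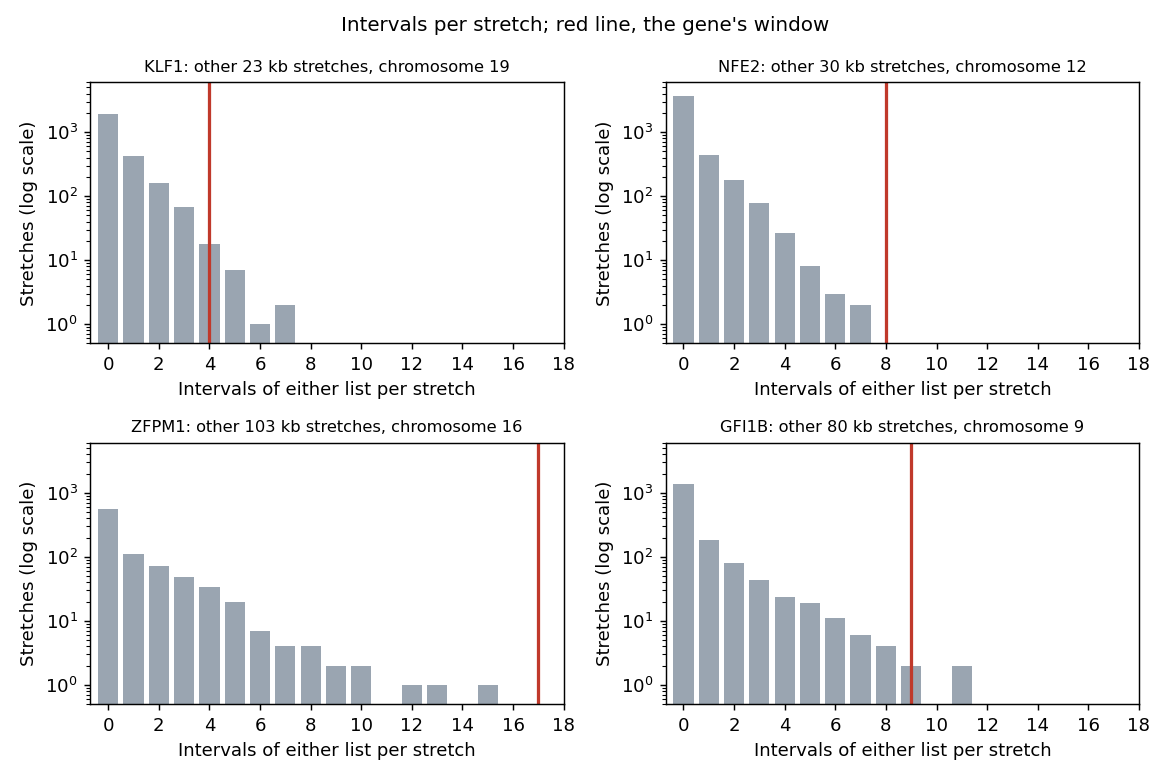
Bars count the other stretches of equal length on the same chromosome (vertical, log scale) by the number of intervals of either list in them (horizontal), and the red line marks the gene's own window. The line stands beyond all bars for NFE2 (8 against at most 7) and ZFPM1 (17 against at most 15), and within them for KLF1 and GFI1B.

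The 4 windows differed in how densely intervals lay. NFE2 had 2.67 intervals per 10 kb, KLF1 1.74, ZFPM1 1.65 and GFI1B 1.13. For shared intervals alone the order was NFE2 (2.0 per 10 kb), KLF1 (1.30), GFI1B (0.75) and ZFPM1 (0.583). ZFPM1 came last there, while for GATA1-only intervals it came first, at 1.07 per 10 kb. The share of GATA1 intervals also listed for TAL1 was 75% at KLF1, NFE2 and GFI1B, with wide exact intervals that overlap that of ZFPM1.

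**Figure D3:**
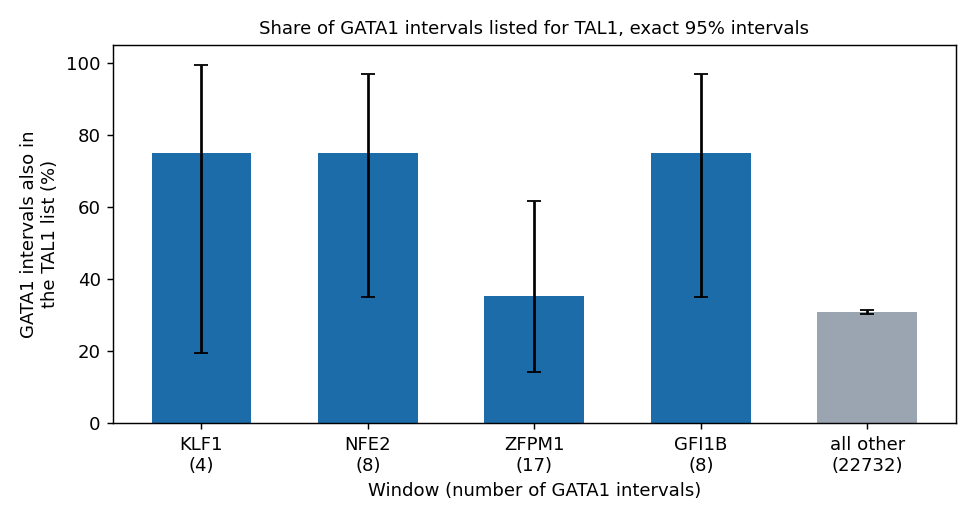
Bars give the percentage of GATA1 intervals also in the TAL1 list, with exact 95% intervals as error bars and the number of GATA1 intervals in brackets. KLF1, NFE2 and GFI1B stand at 75%, ZFPM1 at 35.3% and all other GATA1 intervals at 30.8%.

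Rich stretches elsewhere did not always hold so many shared intervals. On chromosome 19, 20 other stretches of the length of the KLF1 window held at least 4 GATA1 intervals, and 8 of these held at least 3 shared ones. On chromosome 9, 5 stretches had at least 8 GATA1 intervals, and 0 of them had 6 shared ones. In stretches with at least 4 GATA1 intervals, the share listed for TAL1 reached that of the gene in 35% of 20 for KLF1, 12.9% of 31 for NFE2, 13.1% of 61 for GFI1B and 43.5% of 62 for ZFPM1. A share like that of KLF1 or ZFPM1 was therefore common among such stretches.

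The widths of shared and GATA1-only intervals differed from gene to gene. Outside the windows the median width was 373 bp for shared and 264 bp for GATA1-only intervals. At the 4 genes it was 236 bp for the 21 shared intervals (quartiles 203 and 370 bp) and 243 bp for the 16 GATA1-only ones (quartiles 138 and 284.5 bp). Shared intervals were thus wider at both quartiles but not at the median, and 11 of the 16 GATA1-only ones came from ZFPM1. At ZFPM1 the shared intervals had a median of 303.5 bp against 162 bp for GATA1-only ones, and at NFE2 298.5 against 277.5 bp.

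KLF1 and, by median, GFI1B went the other way. At KLF1 each of the shared intervals was narrower than the GATA1-only interval. Of all shared intervals in the lists, 1.38% were as narrow as the 96 bp one or narrower, 1.74% as the 101 bp one and 6.73% as the 155 bp one. At GFI1B the medians were 276.5 bp for shared and 384.5 bp for the 2 GATA1-only intervals, of 224 and 545 bp. A width is that of the listed interval, which both factors have in common where it is shared, and it measures the binding of neither.

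**Figure D4:**
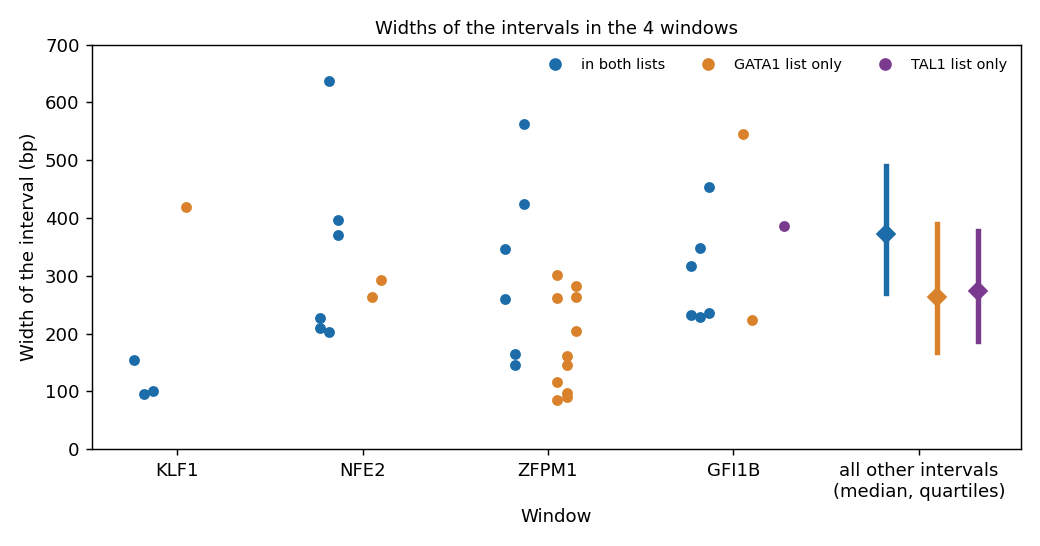
Points are the widths in bp of the intervals in each window, coloured by label, and the last column gives the median (diamond) and quartiles (line) of all other intervals. The 3 shared KLF1 intervals lie at 96 to 155 bp, below its GATA1-only interval of 419 bp and below the lower quartile of 270 bp of other shared intervals.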

How the data were processed

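GATA1 and TAL1 ChIP-seq was analysed in K562 cells of control genotype (1 library each), with groups taken from the sample titles. The authors deposited 1 list per library, of chromosome, start and end with no header, and no height or p-value. Trimmomatic, Bowtie2, MACS2, deepTools and hg19 are named per the submitters' processing notes, without versions. The sources used here do not say whether reads were pooled for calling. In all, 7029 intervals had the same start and end in both lists. Whether the lists were called separately was not tested, so a shared label is not evidence of independent calls. Starts were counted from 1. No distinct interval overlapped another (0 cases), and 4 mitochondrial TAL1 intervals were left out.

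The windows, the members and the list of comparisons were chosen with earlier results of these data known. All 12 labels were mapped, and 10 libraries were not analysed here. Each chromosome was tiled end to end from the edges of the window (hg19 lengths from GenomeInfoDb 1.38.1), and intervals per stretch were counted with at least 1 bp of overlap in Python 3.11.15 with numpy 2.4.6. All stretches were counted, none was sampled, and unsequenced gaps were not masked. Exact (Clopper-Pearson) 95% intervals came from scipy 1.17.1. There is no replicate, so no test was made. The counting was tested on simulated lists. Positions were printed for every interval of KLF1 and NFE2, and at ZFPM1 and GFI1B for shared, TAL1-only and the widest GATA1-only intervals. No hg19 genome or annotation was used, so bases under intervals and other pathway genes were not analysed here.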

Additional observations from a re-analysis of the deposited data

How the results depend on the processing

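All 4 counts stayed within 1.5 times with midpoints in the window, gaps of at most 500 bp joined or windows widened by 10 kb on each side. Labels by any overlap could change nothing, since no interval overlapped another. With intervals under the median width left out they were 1 at KLF1, 3 at NFE2, 4 at ZFPM1 and 5 at GFI1B. The 1 kept at KLF1 was GATA1-only, and most of the 4 kept at ZFPM1 were shared. The lists give no height, so width stood in for a stricter threshold, and fewer intervals remain by construction. The percentage of other stretches with at least as many intervals then became 18.3% for KLF1 (from 1.09%), 0.426% for NFE2 and 1.94% for ZFPM1 (both from 0%). Without empty stretches it was 4.17% for KLF1 and 1.07% for GFI1B, as fewer stretches are counted. With gaps joined KLF1 itself held 3, a lower bar, and 2.30% of other stretches held as many. For KLF1 the percentage was 0.614% over chromosomes 1 to 22 and X, and the cause was not tested. For GFI1B it was 0.414% over those chromosomes (from 0.227%). Of 20 such percentages, 13 stayed within the exact interval of the reported value. Some of the 13 could not move, as NFE2 and ZFPM1 stay at 0% by construction when empty stretches are left out. The exact interval also treats stretches as independent. The share of GATA1 intervals also in the TAL1 list, 56.8%, was 51.7 to 54.5% without KLF1, NFE2 or GFI1B, 75% without ZFPM1, and 75% of 12 among wider intervals, where it was 42.1% outside the windows. No paired analysis was possible because each factor has 1 library. Depth is unknown, so an interval missing from a list is not shown to be unbound.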

Other observations

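The spacing of intervals within the windows was looked at after the counts were known. The tightest run of 4 neighbouring intervals spanned 2.65 kb at KLF1, 3.71 kb at ZFPM1, 3.99 kb at NFE2 and 7.31 kb at GFI1B. Among other stretches of equal length with at least 4 intervals, a run as short was present in 3 of 28 for KLF1, 1 of 76 for ZFPM1, 3 of 40 for NFE2 and 9 of 68 for GFI1B. A stretch with more intervals offers more runs to choose from, so these counts partly restate the number of intervals. ZFPM1 held 17 intervals and NFE2 8, while 34 of the 76 and 27 of the 40 stretches held exactly 4. KLF1 itself held 4. The ZFPM1 run consists of GATA1-only intervals alone and includes a gap of 39 bp. The order of widths at KLF1 was also seen elsewhere on chromosome 19. In 36 of the 111 other stretches of 23 kb with both labels, or 32.4%, each shared interval was narrower than each GATA1-only one, whatever their widths.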
